A study of Mus musculus with 2 samples.

Results

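The genes described are 5 microRNA genes, each in an intron of a protein-coding gene of metabolism. Mir107, Mir103-2 and Mir103-1 lie in the pantothenate kinase genes Pank1, Pank2 and Pank3, Mir33 lies in Srebf2, and Mir378a lies in Ppargc1b. They were chosen by host gene and symbol, without use of their counts. They are 5 of 2202 microRNA genes in the count data, of which 1385 had 0 sense counts in both libraries. MicroRNA-seq of RNA below 30 nt was done on hippocampus of female B6CASTF1/J mice, F1 hybrids of C57BL/6J and CAST, at 10 days of age. The series holds 1 group of 2 biological replicates with no treatment, and the labels name a separate set of 3 females for each, so a value is that of a pool and the spread between libraries joins animals, dissection and library preparation. Without a second group there was no contrast between conditions, and the levels of the 5 genes, their order and the difference between the libraries were measured.

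A microRNA in a sense intron can be cut from the transcript of its host, and its mature strand then guides a silencing complex to messages that pair with its seed, bases 2 to 8. Pantothenate kinases catalyse the rate-limiting step of coenzyme A synthesis, and miR-103 and miR-107, held in their introns, are known for limiting insulin sensitivity and for lowering Dicer. Srebf2 encodes SREBP-2, the transcription factor that drives cholesterol synthesis and uptake, and miR-33 from its intron represses the cholesterol exporter Abca1. Ppargc1b encodes the coactivator PGC-1β, which acts on mitochondrial genes, and miR-378 is known from studies of mitochondrial metabolism in liver, muscle and fat. In brain, miR-107 has been studied as a regulator of the beta-secretase Bace1.

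The mature forms are shown because 2 of the 5 genes annotate the same one, and a read of it has no single place. Of the 5 genes, 4 were looked up in the RefSeq microRNA table (build GRCm38.p6) and matched. Mir378a was left out before matching, so whether the table holds it was not tested. In the lines below the seed is in capitals, 5′ to 3′, and miR-103-3p is annotated with the same letters in Mir103-1 and Mir103-2.
miR-103-3p: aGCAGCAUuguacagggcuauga
miR-107-3p: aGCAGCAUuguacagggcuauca
miR-103-1-5p: gGCUUCUUuacagugcugccuug
miR-103-2-5p: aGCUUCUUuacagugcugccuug
miR-107-5p: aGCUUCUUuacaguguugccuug
miR-33-5p: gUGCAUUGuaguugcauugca
miR-33-3p: cAAUGUUUccacagugcaucac

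The 8 mature forms of these 4 genes had 4 different seeds. The 3 Pank microRNAs shared GCAGCAU on the 3p arm and GCUUCUU on the 5p arm. Among the 1738 mature forms of the table outside chromosome 18, no gene beyond these 3 carried either seed. The seeds of Mir33, UGCAUUG and AAUGUUU, were each found in Mir33 alone. Chromosome 18 was not searched and the table does not cover every microRNA gene, so further genes with these seeds may exist.

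Counted from the 5′ end of the mature form, miR-103-3p and miR-107-3p differed at 1 of 23 bases, G22C. On the 5p arm, Mir103-1 and Mir103-2 differed by G1A, Mir103-2 and Mir107 by C16U, and Mir103-1 and Mir107 by both changes. The first 21 bases of the 3p form were found in all 3 Pank microRNA genes. With 22 or 23 bases, the miR-107-3p form was found in Mir107 alone, and the miR-103-3p form was still in Mir103-1 and Mir103-2. A read of a whole miR-103-3p therefore has 2 places among the annotated hairpins, a read of a whole miR-107-3p has 1, and a read that ends at base 21 has 3.

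The hairpins of the Pank microRNAs show where this likeness ends, with the mature forms in capitals and the lower-case bases in the loop and flanks.
Mir103-1: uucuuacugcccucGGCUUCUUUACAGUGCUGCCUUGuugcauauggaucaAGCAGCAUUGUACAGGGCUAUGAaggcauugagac
Mir103-2: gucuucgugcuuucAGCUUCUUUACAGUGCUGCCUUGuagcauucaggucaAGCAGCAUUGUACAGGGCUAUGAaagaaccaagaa
Mir107: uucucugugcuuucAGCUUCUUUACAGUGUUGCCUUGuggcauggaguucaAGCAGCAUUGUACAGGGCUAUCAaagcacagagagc
Mir33: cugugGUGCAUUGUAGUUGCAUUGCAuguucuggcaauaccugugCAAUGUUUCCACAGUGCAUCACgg

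Compared base by base without gaps, the hairpins of Mir103-1 and Mir103-2 were equal at 69 of 86 bases (80.2%). Those of Mir103-2 and Mir107 were equal at 73 of 86 bases (84.9%), and those of Mir103-1 and Mir107 at 69 of 86. The longest stretch shared with another of 2202 annotated hairpins, on either strand, was 27 nt for Mir103-1 and for Mir103-2, which share it with each other. It was 24 nt for Mir107, shared with Mir103-1 and Mir103-2, and 12 nt for Mir33. Of the windows of 22 nt, about the length of a mature microRNA, 8 of 65 in Mir103-1, 10 of 65 in Mir103-2 and 5 of 66 in Mir107 occurred in another hairpin. Of 48 such windows in Mir33, 0 did. In both Mir103 genes the longest shared stretch ran from base 49 to base 75 of the hairpin and covered all of the 3p form, at bases 52 to 74. They also shared 23 nt at bases 16 to 38, all of the 5p form (bases 15 to 37) but its first base. In Mir107 the longest ran from base 49 to base 72 and ended 2 bases before the end of its 3p form. Mir107 and Mir103-2 also shared 23 nt at bases 7 to 29.

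**Figure D1:**
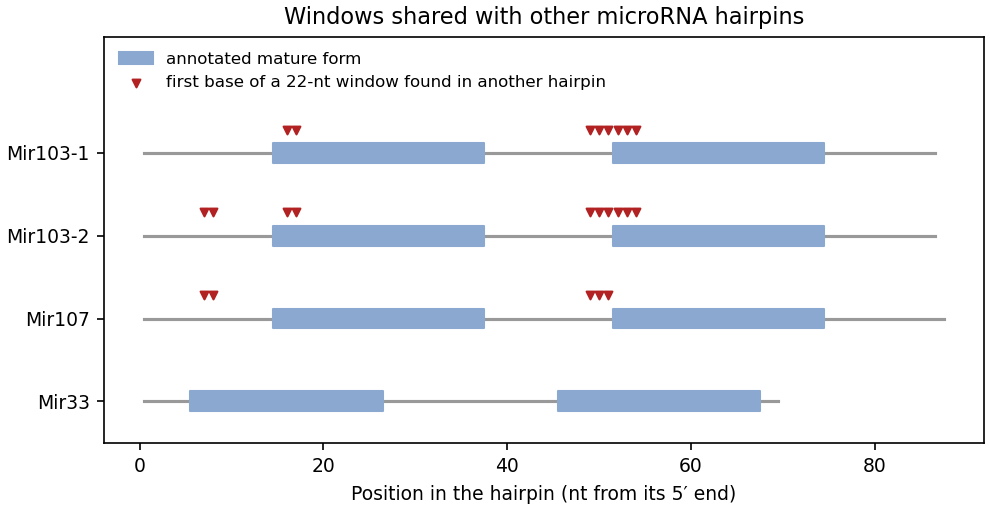
Windows of 22 nt that occur in another annotated microRNA hairpin, along the hairpins of 4 genes. The x axis is the position from the 5′ end in nt, the grey line is the hairpin, blue bars are mature forms and each red mark is the first base of a shared window. Most marks start at bases 49 to 54, at or just before the 3p form of the 3 Pank microRNAs, the others start at bases 7 to 17, and Mir33 has 0.

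Mir107 and Mir378a carried nearly all counts of the 5 genes. Levels are in CPM, the sense counts of a gene in every 1000000 that its library holds on microRNA genes. Each count is a sequenced read of a small RNA, so levels were not divided by the hairpin length, which was 66 to 87 bp. The sense totals behind them were 5479267 in replicate 1 and 3563226 in replicate 2. Together the 5 genes held 37480 counts in replicate 1 and 24478 in replicate 2, or 0.6855% ± 0.00207 of the sense counts (SD, n = 2). Mir107 and Mir378a held 98.6% of these counts in each library, and the other 3 genes had 523 counts in replicate 1 and 351 in replicate 2. In replicates 1 and 2, a further 43.2% and 39.3% of all reads were set aside as multimapping and count for no gene, and how much of them comes from miR-103 or miR-107 is not known.

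Mir107, in an intron of Pank1, was counted 16393 times in replicate 1 and 12475 times in replicate 2. This gave 2992 and 3501 CPM, a mean of 3246 ± 360.1 CPM (SD, n = 2), rank 57 of all microRNA genes and 18 of 741 in sense introns of protein-coding genes. Its neighbours in the order of mean CPM were Mir431, at 3275 ± 296.0 CPM, and Mir337, at 3237 ± 180.0 CPM. The CPM ranges of these 3 genes over the libraries overlapped, so their order was not resolved.

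Mir103-2, in an intron of Pank2, had 311 and 228 counts, or 56.8 and 64.0 CPM, a mean of 60.4 ± 5.11 CPM (SD, n = 2) and rank 237. Mir103-1, in an intron of Pank3, had 67 and 19 counts, or 12.2 and 5.33 CPM, a mean of 8.78 ± 4.88 CPM and rank 337. Its mean rests on replicate 1, since without that library the level was 5.33 CPM. Next to Mir103-2 in mean CPM were Snord43, annotated as a microRNA gene in an intron of Rpl3, at 60.7 ± 9.98 CPM, and Mir9-3, at 58.3 ± 14.6 CPM. Next to Mir103-1 were Mir6897, in an intron of Uggt1, at 8.85 ± 2.20 CPM, and Mir5113, at 8.64 ± 0.0864 CPM, and neither order was resolved. Both libraries placed Mir107 above Mir103-2 and Mir103-2 above Mir103-1, and the ranges did not overlap.

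Mir107 held 97.7% of the counts assigned to the 3 Pank microRNAs in replicate 1 and 98.1% in replicate 2. Mir103-2 held 1.85% and 1.79%, and Mir103-1 0.399% and 0.149%. Within a library, the count of Mir107 was 52.7 and 54.7 times that of Mir103-2. The 2 genes with the low counts are those whose 3p form has the same letters in both, and multimapping reads were not assigned. The part of this in the low levels of Mir103-1 and Mir103-2 was not tested, so their counts are not levels of miR-103-3p in the tissue. The 3p form of Mir107 is told from that of the Mir103 genes by base 22 alone, and a read of it that ends before this base has 3 places.

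**Figure D2:**
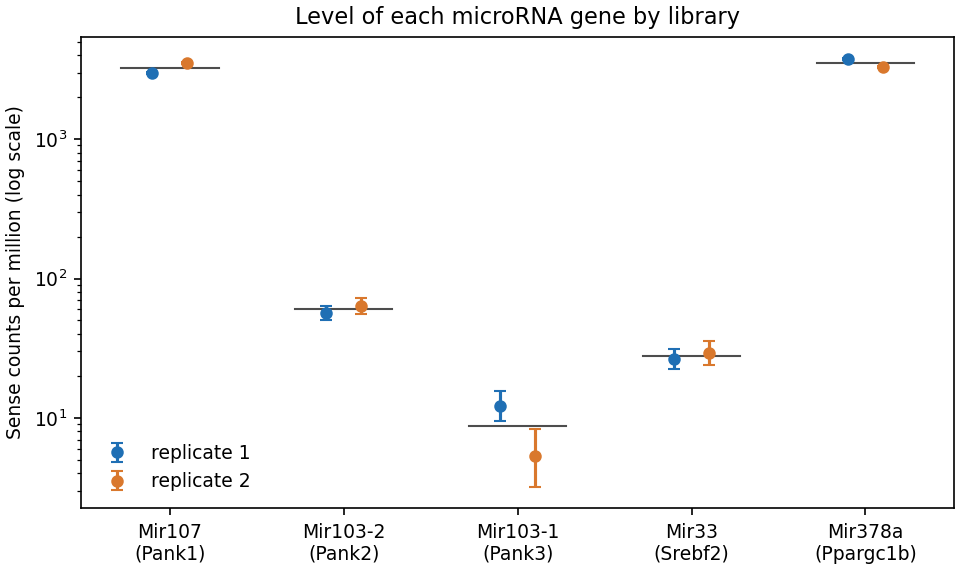
Level of each gene in each library, in CPM on a log scale, with the host gene in brackets. Points are libraries, bars are exact 95% intervals of counting error and grey lines are means of 2 libraries. Mir107 and Mir378a sit near 3246 and 3512 CPM, and Mir103-2, Mir33 and Mir103-1 at 60.4, 27.8 and 8.78 CPM.

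Mir33, in an intron of Srebf2, was low in both libraries. The libraries held 145 and 104 counts of it. The CPM values were 26.5 (exact interval 22.3 to 31.1) and 29.2 (exact interval 23.9 to 35.4), a mean of 27.8 ± 1.93 CPM (SD, n = 2), rank 273 of all microRNA genes and 101 of 741 in sense introns. No window of 22 nt in its hairpin occurs in another annotated hairpin, and other places in the genome were not searched. Its neighbours in level were Mir193a, at 28.7 ± 4.69 CPM, and Mir194-2, at 26.2 ± 1.90 CPM, with overlapping ranges. Both libraries placed Mir33 below Mir103-2, whose count was 2.14 and 2.19 times as high, and above Mir103-1.

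Mir378a, in an intron of Ppargc1b, was the highest of the 5 genes by mean. Its counts were 20564 in replicate 1 and 11652 in replicate 2. The levels of 3753 and 3270 CPM gave a mean of 3512 ± 341.5 CPM (SD, n = 2), rank 52 of all microRNA genes and 17 of 741 in sense introns. The order of Mir378a and Mir107 was not resolved, since Mir378a was higher in replicate 1 and lower in replicate 2. Of the counts of this pair, Mir107 held 44.4% (exact interval 43.8 to 44.9) in replicate 1 and 51.7% (exact interval 51.1 to 52.3) in replicate 2. Because both genes are counted in the same library, this turn in their order does not depend on how the libraries are scaled. Its neighbours by mean were Mir17, at 3657 ± 111.0 CPM, and Mir370, at 3408 ± 687.5 CPM, again with overlapping ranges.

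The numbered relatives of Mir378a, at other loci, had counts at or near 0. Stretches shared between Mir378a and these relatives were not searched, and multimapping reads were unassigned. Low counts here therefore do not show that the mature forms of the relatives were absent. Mir378c had 11 and 4 counts, Mir378d 10 and 2, and Mir378b 0 and 2. With fewer than 10 counts in replicate 2, each of the 3 was below the minimum for detection. A count of 0 in replicate 1 allows a level of up to 0.548 CPM where reads have a single place.

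Mir378a could be counted only with regard to strand. The gene Gm25301, annotated as a microRNA on the opposite strand (chromosome 18, 61397813 to 61397925, plus strand), spans its whole hairpin. In counts without regard to strand, Mir378a stood at 0 in both libraries, and Gm25301 as well. On the strand of Gm25301 there were 0 counts in each library, and none of the 5 genes had an antisense count. No microRNA gene is annotated opposite Mir107, Mir103-1, Mir103-2 or Mir33, and their counts were the same with and without regard to strand.

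The 5 genes share a layout, of which the place in an intron was fixed by the choice. In GENCODE M21 on GRCm38 (mm10), each hairpin lies on the strand of its host and overlaps no exon of it. None has another microRNA gene within 10000 bp on its strand, and none of the 5 hosts holds a second one in a sense intron. The nearest on the same strand was Mir218-2, at 165471 bp from Mir103-1, and for the other 4 the distance was 210268 bp or more. All 5 thus stand alone rather than in a cluster, and how common this is among other genes in sense introns was not counted.

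In the principal transcripts, each of 7 exons, all 3 Pank microRNAs lie in intron 5. Mir107 (ENSMUSG00000065594.1, chromosome 19, 34820687 to 34820773, minus strand) starts 326 bp after the upstream exon in an intron of 7282 bp. Mir103-2 (ENSMUSG00000065563.1, chromosome 2, 131288052 to 131288137, plus strand) starts 454 bp into an intron of 5801 bp. Mir103-1 (ENSMUSG00000065553.1, chromosome 11, 35782396 to 35782481, plus strand) starts 688 bp into an intron of 1740 bp.

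Mir33 (ENSMUSG00000065465.1, chromosome 15, 82198122 to 82198190, plus strand) lies in intron 16 of 19 exons of Srebf2, 335 bp after the upstream exon in an intron of 1848 bp. Mir378a (ENSMUSG00000105200.1, chromosome 18, 61397835 to 61397900, minus strand) lies in intron 1 of 12 exons of Ppargc1b. That intron is 76981 bp long, and the hairpin starts 2389 bp into it. The hosts' own transcripts are outside the sequenced size, so levels of hosts and microRNAs could not be compared.

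**Figure D3:**
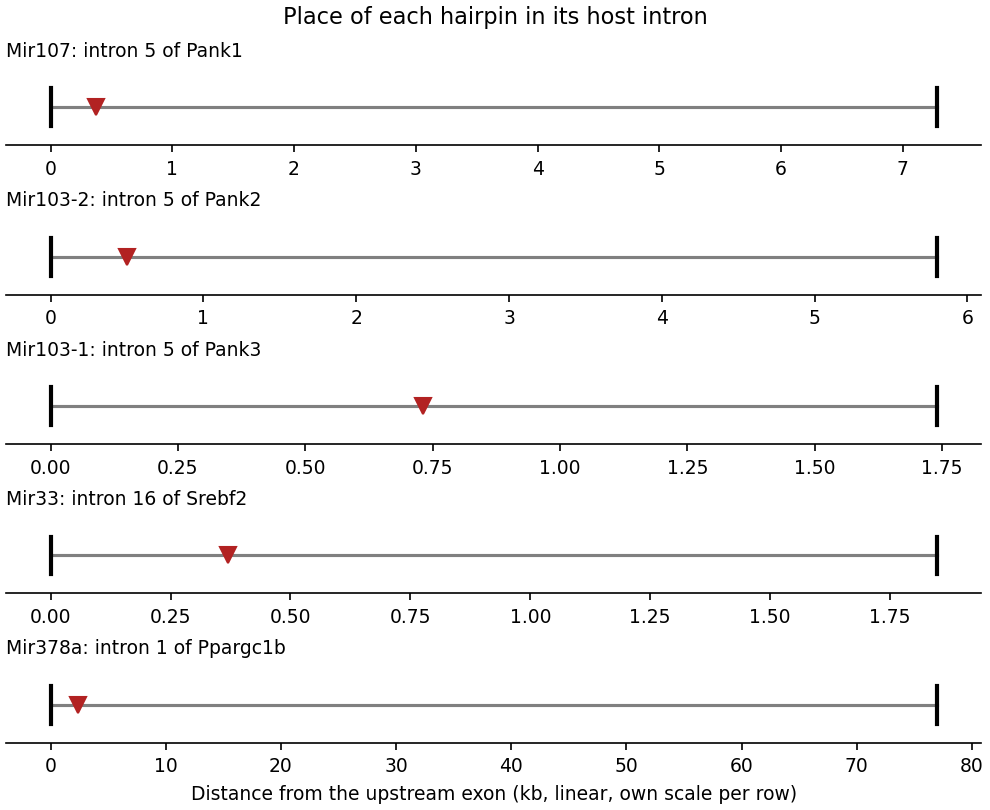
Place of each hairpin in the intron of its host's principal transcript. The x axis is the distance from the upstream exon in kb, on a scale of its own in each row, black bars are the ends of the flanking exons and the red mark is the centre of the hairpin. The 3 Pank hairpins all lie in intron 5, between 326 and 688 bp after the upstream exon.

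All 5 genes were detected, with at least 10 sense counts in each library, against 19.5% of all microRNA genes and 24.7% of the 741 in sense introns of protein-coding genes. The median of the 5 mean levels was 60.4 CPM, the value of Mir103-2, whose count is not a level of miR-103-3p. Among all detected genes the median was 87.8 CPM, and among the 178 other detected genes in sense introns it was 48.0 CPM. Among the 741 genes in sense introns, of which 183 were detected, 2 of the 5 genes had ranks 17 and 18 and the other 3 lay between ranks 86 and 129.

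The libraries were compared gene by gene with a two-sided exact binomial test of the 2 counts against the scaled library sizes, adjusted by Benjamini-Hochberg over the detected genes. This test compares the libraries, not conditions. Of the 5 genes, 3 differed beyond counting error at an adjusted p of 0.05, and 61.3% of the detected genes did so, so the count of 3 is no result about these genes. Lower in replicate 2 were 2 of them, against 32.6% of detected genes, and higher was 1, against 28.7%.

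Mir103-1 had a log2 ratio of replicate 2 to replicate 1 of -1.24 (exact interval -2.08 to -0.51, adjusted p = 0.000828, exact binomial test). That is 2.37-fold lower in replicate 2, from 67 and 19 counts, and 3.73% of detected genes had a ratio as low or lower. Mir378a had a log2 ratio of -0.26 (exact interval -0.29 to -0.23, adjusted p = 6.08e-55, exact binomial test), and Mir107 one of 0.16 (exact interval 0.13 to 0.20, adjusted p = 4.31e-21, exact binomial test). These 2 differences, of 1.20-fold and 1.12-fold, were smaller than the median absolute log2 ratio of 0.33 over all detected genes. Both genes had more than 10000 counts in each library, where counting error is small beside the spread between libraries.

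Mir103-2 had a log2 ratio of 0.11 (exact interval -0.14 to 0.36, adjusted p = 0.465, exact binomial test), and Mir33 one of 0.08 (exact interval -0.30 to 0.45, adjusted p = 0.768, exact binomial test). For these 2 genes no difference was detectable at this depth, and the intervals allow a change of up to 0.36 and 0.45 on the log2 scale. The count of Mir103-2 was 4.64 times that of Mir103-1 in replicate 1 and 12.0 times in replicate 2.

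**Figure D4:**
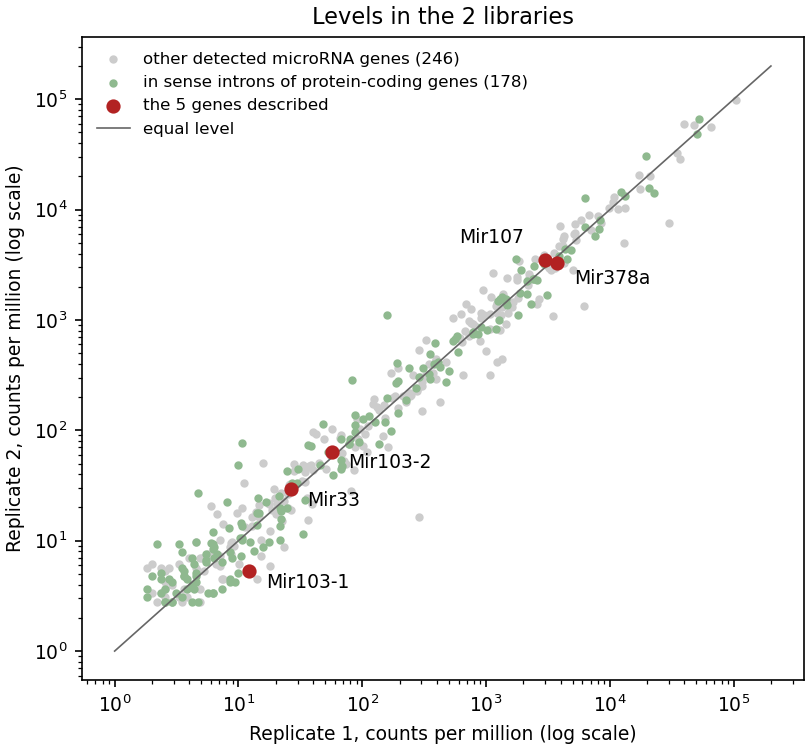
Levels of the 429 detected microRNA genes in replicate 1 (x axis) and replicate 2 (y axis), in CPM on log scales. Red points are the 5 genes, green points the 178 other genes in sense introns of protein-coding genes, grey points the remaining genes, and the line marks equal levels. Mir103-1 lies below the line, at 12.2 and 5.33 CPM, and the other 4 lie close to it.

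Of a list of 24 microRNAs studied in lipid and glucose metabolism, 23 matched a symbol and 21 were detected. The list held 2.92% ± 0.0747 of the counts (SD, n = 2), and its detected members had a median of 224 CPM. Its leading genes were Mir342, in an intron of Evl, at 7433 ± 1150 CPM, Mir128-1, known to lower the LDL receptor, at 6638 ± 435.4 CPM, Mir370 at 3408 ± 687.5 CPM, and Mir143, of smooth muscle, at 3082 ± 196.1 CPM. Mir107 and Mir378a lay below Mir342 and Mir128-1 in both libraries. Between the libraries 16 of the 21 differed, 5 higher and 11 lower in replicate 2, beside the 61.3% of all detected genes given above.

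The nervous tissue list held 2.94% ± 0.220 of the counts (SD, n = 2), with 11 of 13 members detected. Its members ran from 0.877 to 8030 CPM by mean, so the sum does not describe each of them, and multimapping reads were unassigned. Because miR-378 and miR-33 are also studied in liver and muscle, the lists of these tissues are given beside them. Liver markers summed to 0.00670% and 0.00719% in replicates 1 and 2, with 3 of 4 detected and Mir122 at 34.7 and 34.2 CPM. Muscle markers summed to 0.00436% and 0.0102%, with 1 of 7 detected and 4 at 0 in both libraries, multimapping reads being unassigned here too. Blood markers held 0.0107% ± 0.00173, with 4 of 4 detected, and choroid plexus and ependyma markers 0.479% ± 0.0125, with 3 of 3 detected. In replicates 1 and 2, Mir378a held 0.375% and 0.327% of the counts, and Mir33 held 0.00265% and 0.00292%, below the sum of the liver markers and below Mir122 alone. The part of liver, muscle or other cells in the levels of these 2 genes was not tested.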

How the data were processed

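MicroRNA-seq was done on 2 samples of 1 group. Per the file notes, the authors deposited raw counts for each library, by microRNA gene, on mm10 with GENCODE M21. The aligner, the counter and any filter on reads were not given in the sources used here. The strand column with the larger total over genes was taken as sense. All 2202 gene identifiers matched GENCODE M21. The 4 rows of reads without a gene, 63.6% and 62.4% of reads, entered no library size or test. The libraries were no copies of each other (chi-square per gene 520). CPM are sense counts over sense totals. TMM factors came from edgeR 4.0.16 and alternative size factors from DESeq2 1.42.0. The binomial tests came from SciPy 1.17.1. They were checked on simulated data with counting error only, which lack the spread between these libraries. Ratios add 0.5 counts. Clopper-Pearson intervals (95%) and the limit of 3 counts for a 0 cover counting error only. Host introns used the principal transcript. Shared stretches were searched in GENCODE transcripts. Mature forms and hairpins are from RefSeq, with its entries of chromosome 18 left out. Mir378a lies on that chromosome, so it was not matched and no sequence of it is shown.

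The rule for the 5 genes used host gene and symbol, not counts. Earlier results of these data were known when the 5 genes and the lists were chosen. The lists were lipid and glucose, nervous tissue, liver, muscle, blood, and choroid plexus and ependyma. Named genes are the 5, genes of the same seed or on the opposite strand, Mir378b, Mir378c and Mir378d, the gene just above and just below each of the 5 by mean CPM, and the 4 most abundant of the lipid and glucose list. Likeness of pattern was not computed over 2 libraries. Alternatives were counts without regard to strand, other denominators, scalings, minimums and added counts, and each library left out.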

Additional observations from a re-analysis of the deposited data

Results flagged for a closer look

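Reads on the strand opposite Gm25301, outside the sense counts of that gene, numbered 20564 in replicate 1 and 11652 in replicate 2, above the limit that a count of 0 allows. They equal the sense counts of Mir378a, which lies within Gm25301 on the other strand.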

How the results depend on the processing

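Mir378a stood at 0 CPM and the share of the 5 genes at 0.3555% in counts without regard to strand. With all reads as the denominator, which includes reads without a gene, the levels per 1000000 reads were 1297 for Mir378a, 1202 for Mir107, 22.35 for Mir103-2, 10.3 for Mir33 and 3.23 for Mir103-1, and the share of the 5 genes was 0.2535%. The number of the 5 genes detected fell to 4 at a minimum of 100 counts, where Mir103-1 was lost, and to 4 in counts without regard to strand, where Mir378a was lost. Of 429 genes tested, 263 differed between the libraries, against 262 when scaled by DESeq2 size factors and 260 when scaled by library totals. The other settings also changed the number of genes tested. Without the minimum 288 of 817 genes differed, at a minimum of 100 counts 220 of 267, and without regard to strand 245 of 406. The share of genes that differed thus depended on the minimum. The levels of the other 4 genes in counts without regard to strand moved by less than the SD of the 2 libraries. With 1 library left out, a value is that of the other library and always lies within this SD, so stability was not tested. For Mir103-1 these values were 12.23 CPM in replicate 1 and 5.33 CPM in replicate 2. Directions of the 5 ratios were the same with TMM, DESeq2 size factors, library totals and 5 added counts. The median log2 ratio of detected genes was 0.04, 0.00 and 0.11 under the first 3, and the ratio ran from 0.12 to 0.23 for Mir107, from -0.31 to -0.20 for Mir378a and from -1.29 to -1.10 for Mir103-1. Mir103-1 was not tested at a minimum of 100 counts, and Mir378a not without regard to strand. In each of these settings 2 of the 4 genes tested were called, beside 220 of 267 and 245 of 406 genes in all. At the depth of Mir103-1, with 19 counts in replicate 2, the exact interval of its level ran from 3.21 to 8.33 CPM.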
